A study of Mus musculus with 7 samples.

Results

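Adhesion G protein-coupled receptors are cell surface receptors with a long extracellular part, built from adhesion modules that bind matrix and surface molecules of other cells, and a membrane-spanning part that couples to G proteins inside the cell. Most of them are cut during maturation at a site next to the membrane, and a short stretch behind the cut can act as a tethered agonist when the extracellular part is pulled away. In macrophages the family is known above all for Adgre1, which encodes the F4/80 antigen, the classical surface marker of mouse tissue macrophages. The members were the protein-coding genes of the count table whose symbols begin with Adgr, a subfamily letter (A, B, D, E, F, G, L or V) and a number. There were 27 of them among 57010 genes in all, and the rule used no measured value.

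The study compared poly-A RNA of Tim4+ resident macrophages sorted from the peritoneal fluid of C57BL/6 mice in steady state (3 libraries) and at day 12 after an injection of m204 MTO (4 libraries). Neither age nor sex of the mice is stated, nor whether the steady-state mice received an injection. MTO is an abbreviation that the labels leave unexplained, and the series title speaks of peritoneal colorectal cancer. The sort gate used Tim4, CD11b and MHC class II, so a level describes the cells inside that gate.

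Total counts were 32077050 to 38586694 per library. Levels are in CPM, reads of a gene scaled to the library total with TMM factors. Means come with the SD (n = 3 for steady state, n = 4 for day 12). A level of 3 reads, taken here as the floor of detection, corresponds to between 0.0777 and 0.0935 CPM. PCR copies are not independent molecules, so counting intervals and this floor hold for counting error alone. The counts are per gene and do not separate isoforms. Within its group each library correlated with the others at a mean r of 0.971 to 0.990 across genes, and no library stood apart in this measure. The sorted cell type was seen in its markers: all 14 resident peritoneal macrophage markers had at least 10 reads in a library, and their summed level was 26800 to 28700 CPM in the steady-state libraries and 27500 to 28400 CPM at day 12. Most of that sum came from Prg4 and Alox15, which were not called. Of the 14 markers 4 were called higher and 3 lower, against 10.1% and 10.2% of all genes tested. Timd4, which encodes Tim4, fell from 963.5 ± 80.5 to 495.0 ± 114 CPM. Itgam, which encodes CD11b, rose from 1328 ± 124 to 2133 ± 361 CPM. The growth factor receptor gene Csf1r fell from 2025 ± 186 to 1505 ± 95.7 CPM (edgeR adjusted p = 0.0304, and 0.0708 to 0.150 without any 1 library other than day 12 replicate 4). Itgam did not pass when steady-state replicate 1 or 3 was left out (adjusted p = 0.0703 and 0.0820).

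Marker genes of lymphocytes were low and summed to more at day 12. The summed level of 8 B cell markers was 6.72 to 10.7 CPM in the steady-state libraries and 21.5 to 47.4 CPM at day 12, and that of 10 T and NK cell markers was 0.476 to 0.860 and 0.927 to 3.14 CPM, with Ncr1 and Klrb1c under 10 reads in every library. The 8 monocyte and dendritic cell markers summed to 41.9 to 65.3 CPM and 71.3 to 384 CPM, most of it from Cd209a. Of these 8, 4 were tested, and Cd209a and Zbtb46 were not called. Ccr2 was called lower (11.8 to 5.19 CPM). Itgax, which passed the filter on low counts through the day 12 libraries alone, was called higher (0.131 to 0.705 CPM). Neutrophil markers summed to 1.75 to 2.72 and 1.72 to 3.40 CPM (Ly6g at 0), eosinophil and mast cell markers to 1.72 to 1.85 and 1.47 to 2.61 CPM (Epx, Prg2 and Ear6 at 0), mesothelial and fibroblast markers to 0 to 0.160 and 0.464 to 0.636 CPM (Msln and Lum at 0), and colorectal epithelial markers to 0.112 to 0.356 and 1.99 to 3.05 CPM (Krt20, Cdx2 and Lgr5 at 0, and most of the sum from Cdh1 at 0.129 and 2.00 CPM). The part of such cells in the members' results was not tested. In bulk RNA fewer cells of a type and less RNA per cell cannot be told apart.

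The table of promoters from RefSeq (build GRCm38.p6, not the GRCm39 of the counts) held 20 of the 27 members. The 250 bases before the transcription start are printed for 3 members whose transcripts fell at day 12, to show the sequence at which these genes begin: Adgre4, a macrophage member of the E subfamily, and the L subfamily genes Adgrl1 and Adgrl4. They lie at chr17:55749734-55749983, chr8:83899848-83900097 and chr3:151437632-151437881, all on the plus strand, with no annotated exon base in GENCODE M21. Capitals mark GAGGAA on either strand (TTCCTC on the minus strand), the core that ETS factors such as PU.1 of macrophages bind. A second motif, AGATAA or TTATCT on the other strand, which GATA factors such as Gata6 of peritoneal macrophages bind, was searched as well. The motifs can share bases, and AGATAA was in none of the 3 windows shown.
Adgre4: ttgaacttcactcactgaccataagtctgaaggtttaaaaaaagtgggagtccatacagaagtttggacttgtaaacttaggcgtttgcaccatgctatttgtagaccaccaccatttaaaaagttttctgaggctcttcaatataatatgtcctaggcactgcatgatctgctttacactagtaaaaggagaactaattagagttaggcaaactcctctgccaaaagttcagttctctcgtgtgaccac
Adgrl1: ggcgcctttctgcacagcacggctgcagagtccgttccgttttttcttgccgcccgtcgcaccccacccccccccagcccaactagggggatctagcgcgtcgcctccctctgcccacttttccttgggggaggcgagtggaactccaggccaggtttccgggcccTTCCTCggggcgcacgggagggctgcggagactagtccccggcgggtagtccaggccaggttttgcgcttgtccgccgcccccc
Adgrl4: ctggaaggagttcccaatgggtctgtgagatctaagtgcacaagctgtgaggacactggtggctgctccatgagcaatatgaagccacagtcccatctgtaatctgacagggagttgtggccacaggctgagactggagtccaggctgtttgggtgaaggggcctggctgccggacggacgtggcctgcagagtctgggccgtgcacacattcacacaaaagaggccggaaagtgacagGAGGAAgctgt

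Adgrl1 and Adgrl4 each held GAGGAA at 1 place, and Adgre4 at none. Of the 24 windows of members, 7 held it, against 23.3% of all 32851 windows of this length. AGATAA was in 2 of the 24 windows, of Adgrf4 and Adgrg7, against 9.99% of all windows. A match is a description of these letters and no binding site, and an absent match says nothing about the factor. Adgre1 and Adgre5 are not in the promoter table.

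At day 12 the family changed in its most abundant members in opposite directions. Adgre1 rose 1.84-fold, while Adgre5 (1.47-fold), Adgre4 (1.53-fold), Adgrl1 (1.64-fold) and Adgrg6 (2.65-fold) fell, and the low transcripts of Adgrl4 and Adgrf1 fell to near the floor of detection. Of the 27 members, 12 passed the filter on low counts (filterByExpr, minimum count 10). With edgeR's quasi-likelihood test at an adjusted p of 0.05, 2 of the 12 were called higher (Adgre1 and Adgrg1), 6 lower and 4 not called. Of all 15981 genes tested, 20.3% were called, 10.1% higher and 10.2% lower. The members' count is no test of the family: Adgrg1 passed the filter through the day 12 libraries alone, and Adgrl4 and Adgrf1 through those of steady state. The median log2 fold change was -0.47 over the 12 members and 0.0031 over all genes tested. Called changes of at least 2-fold were seen in 4 members (10.1% of all genes tested), and the groups did not overlap in 9 of the 12 (35.0% of all genes tested). The members called lower numbered 4 without steady-state replicate 1 or 3. Over all genes the lower calls went from 1626 to 907 and 904 in these fits.

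**Figure D1:**
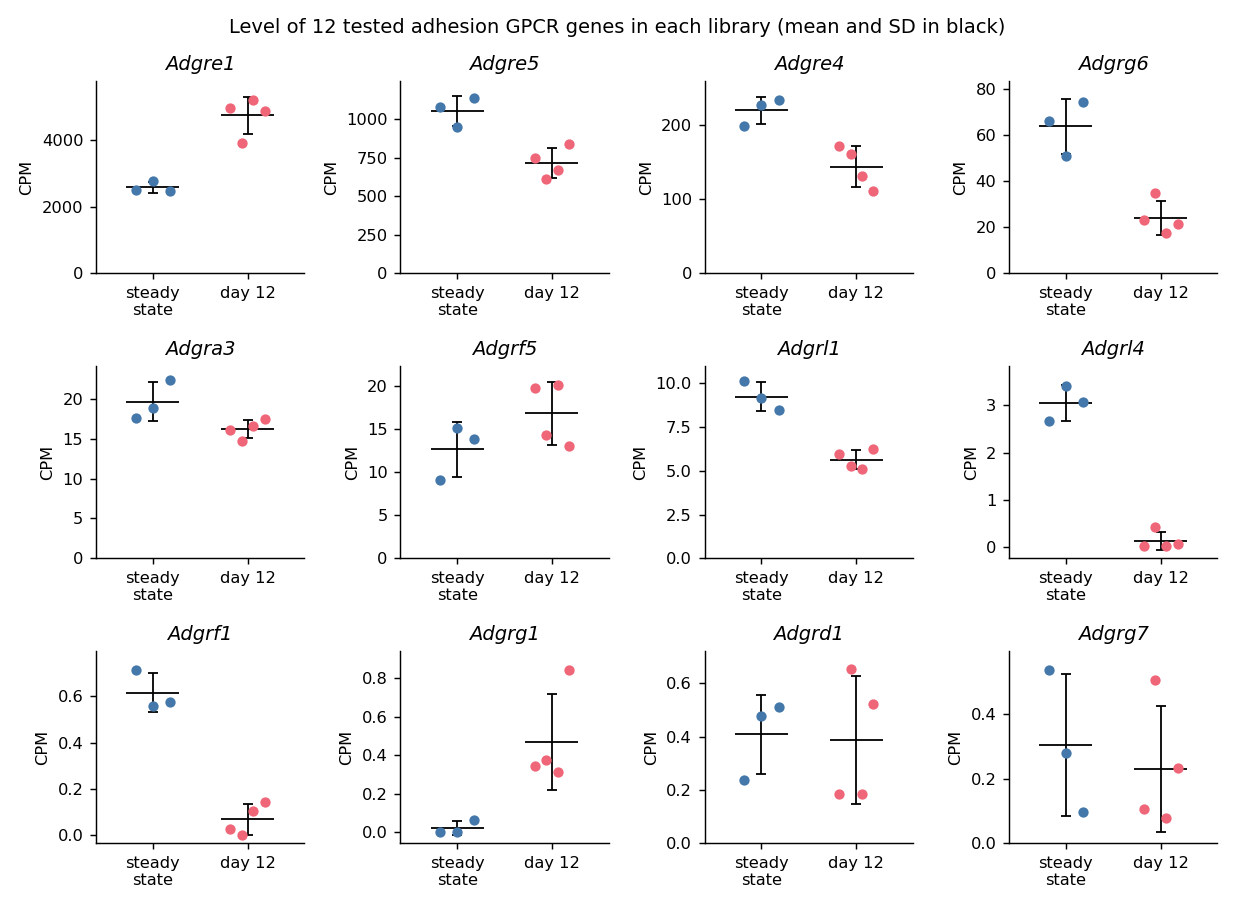
Level of each of the 12 tested adhesion GPCR genes, in CPM (y axis, linear, 1 scale per gene), by group (x axis). Each point is a library, and the black line and bars are the mean and SD. The groups do not overlap in Adgre1, which is higher at day 12, nor in Adgre5, Adgre4, Adgrg6 and Adgrl1, which are lower, whereas Adgrf5, Adgrd1 and Adgrg7 overlap.

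**Figure D2:**
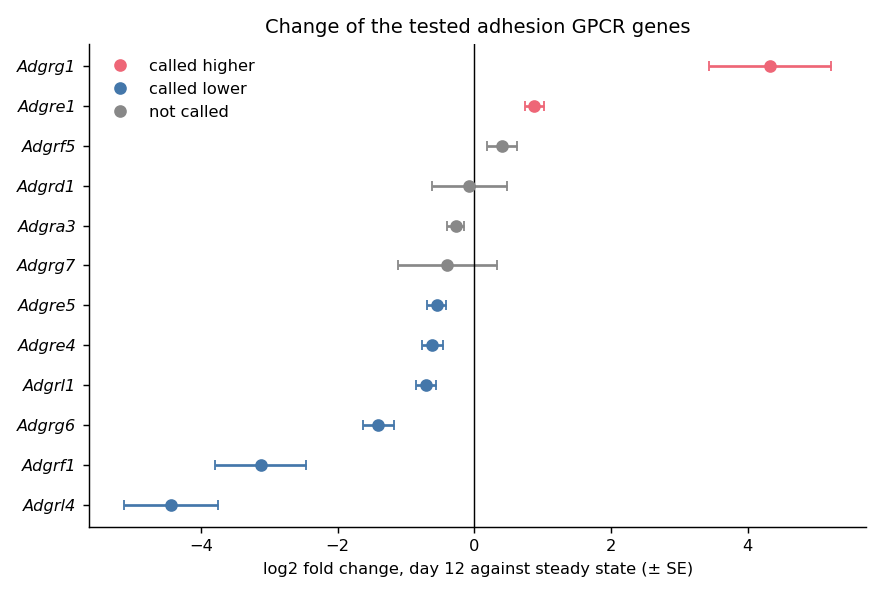
Log2 fold change of the 12 tested members, day 12 against steady state (x axis), with SE bars from edgeR. Colours give the call at an adjusted p of 0.05, with Adgrg1 at 4.32 and Adgrl4 at -4.43 at the ends.

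The E subfamily, the leukocyte branch of the family, carried nearly all of its reads. Adgre1 (ENSMUSG00000004730, chromosome 17, 57665691 to 57790527, plus strand) stood at 2483, 2766 and 2471 CPM in steady-state replicates 1, 2 and 3, and at 4959, 3919, 5203 and 4854 CPM in day 12 replicates 1 to 4. Every day 12 library was above every steady-state library, with replicate 2 the lowest of day 12. The mean went from 2573 ± 167 to 4734 ± 563 CPM (edgeR adjusted p = 0.00239 for a log2 fold change of 0.88 with SE 0.14), and the call held in each of the 7 fits without 1 library (adjusted p from 0.00161 to 0.0218).

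Adgre5, which encodes CD97, a leukocyte receptor that binds the complement regulator CD55, went the other way (ENSMUSG00000002885, chromosome 8, 84449880 to 84467955, minus strand). Its levels were 1078, 946.8 and 1135 CPM in the steady-state libraries and 750.7, 613.5, 670.1 and 835.8 CPM at day 12. Each day 12 library lay below the lowest of steady state, and the mean fell from 1053 ± 96.5 to 717.5 ± 96.9 CPM (edgeR adjusted p = 0.0193 for a log2 fold change of -0.55 with SE 0.14). The adjusted p was 0.0928 without steady-state replicate 1, 0.0935 without replicate 3 and 0.0530 without day 12 replicate 2. The gene overlaps Ddx39a on the other strand, which had 8501 reads over all libraries against 105689 reads of Adgre5 in steady state alone and 107004 at day 12.

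Adgre4, the remaining E member (ENSMUSG00000032915, chromosome 17, 56056984 to 56160662), stood at 198.8, 227.4 and 233.1 CPM in the steady-state libraries and at 172.1, 160.3, 131.0 and 111.3 CPM at day 12. The groups were separate here too, and the mean fell from 219.8 ± 18.3 to 143.7 ± 27.6 CPM (edgeR adjusted p = 0.0222 for a log2 fold change of -0.61 with SE 0.16). Leaving out steady-state replicate 2 or 3 or day 12 replicate 3 ended the call (adjusted p = 0.0842, 0.0913 and 0.0512).

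With Adgre1 higher and its relatives lower, the makeup of the family's reads shifted. The 27 members summed to 3867 to 4039 CPM in the steady-state libraries and to 4764 to 6064 CPM at day 12. Adgre1 held 62.4% to 68.5% of that sum in steady state and 82.3% to 85.8% at day 12, Adgre5 held 23.4% to 28.6% and then at most 14.3%, and the 3 E members together held 96.88% to 99.01% in every library. The other 24 members summed to 99.1 to 124 CPM in the steady-state libraries and 60.3 to 71.5 CPM at day 12. The ratio of Adgre1 to Adgre5 was 2.30, 2.92 and 2.18 in steady state and 6.61, 6.39, 7.76 and 5.81 at day 12. Its log2 value was 1.29 ± 0.224 and 2.72 ± 0.174 (n = 3 and 4). No test is given, since the pair was chosen from genes seen to move in opposite directions.

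**Figure D3:**
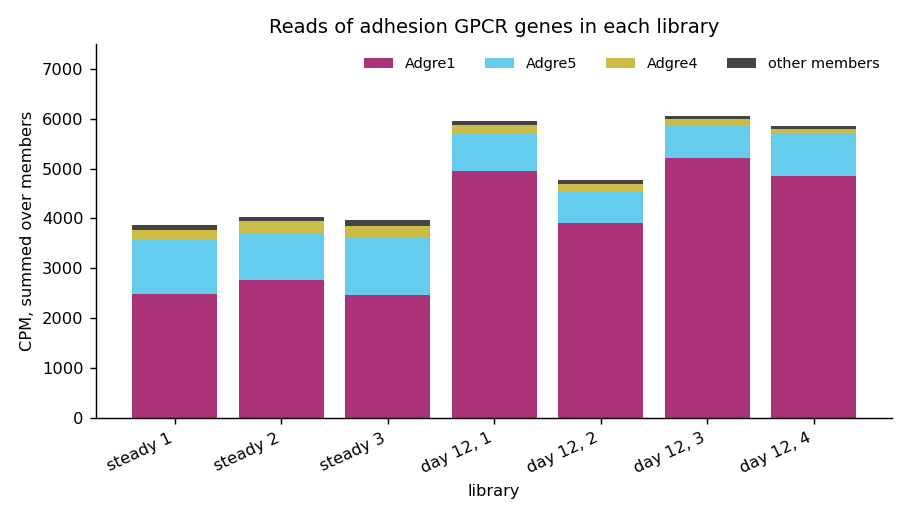
Summed CPM of the 27 members in each library (bars from 0), split into Adgre1, Adgre5, Adgre4 and the other members. The sum lies between 3867 and 4039 CPM in the steady-state libraries and between 4764 and 6064 CPM at day 12, and the Adgre1 part accounts for the taller bars.

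Per length, the same order of the leading genes was seen in both groups. Levels divided by the exonic length of the gene model in GENCODE M21 were 795 CPM per kb for Adgre1, 280 for Adgre5 and 63.0 for Adgre4 in steady state, and 1460, 191 and 41.2 CPM per kb at day 12, with no overlap between neighbours. Adgrg6 followed in steady state at 5.21 CPM per kb, then Adgra3 at 2.42. The next 2, Adgrf5 (1.01 to 1.68 CPM per kb over libraries) and Adgrl1 (0.986 to 1.18), overlapped. At day 12 Adgra3 (1.82 to 2.16 CPM per kb), Adgrg6 (1.41 to 2.83) and Adgrf5 (1.45 to 2.23) could not be ordered.

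In the G subfamily, Adgrg6 fell and Adgrg1 rose from almost nothing. Adgrg6, a receptor that raises cyclic AMP in Schwann cells and is required for myelination of peripheral nerves (ENSMUSG00000039116, chromosome 10, 14278327 to 14421403, minus strand), stood at 66.1, 50.8 and 74.2 CPM in steady state. At day 12 it stood at 22.9, 34.7, 17.3 and 21.2 CPM. All 4 values were below those of steady state, and the mean fell from 63.7 ± 11.9 to 24.0 ± 7.49 CPM (edgeR adjusted p = 0.00265 for a log2 fold change of -1.41 with SE 0.23, and 0.000772 to 0.0187 in the 7 fits without 1 library). The processed pseudogene Gm10335 lies within the gene on the other strand and had 28620 reads over all libraries, more than Adgrg6 itself (6365 in steady state and 3628 at day 12), and no source states whether the counting used strand.

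Adgrg1, which encodes GPR56, a receptor for collagen III and transglutaminase 2 in the developing brain and a marker of cytotoxic lymphocytes (ENSMUSG00000031785, chromosome 8, 95701379 to 95740845), had 0, 0 and 2 reads in steady state and 13, 15, 12 and 29 reads at day 12. Those are 0.470 ± 0.249 CPM at day 12, with replicate 4 at 0.842 CPM and the others between 0.316 and 0.377 CPM. The ratio of the groups was 23.2, with an exact 95% counting interval of 6.18 to 195, and the fitted log2 fold change was 4.32 (SE 0.90, edgeR adjusted p = 0.00904). The fitted value was 7.10 without steady-state replicate 3, the library with the 2 reads, and 2.78 with a prior count of 2. Of the 10 T and NK cell markers 1 was tested, Gzma, which passed the filter through the day 12 libraries alone. Gzma had no read in steady state and 0.273 ± 0.0961 CPM at day 12 (edgeR adjusted p = 0.00819). The part of T and NK cells in the Adgrg1 result was not tested.

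The remaining G members were at or near 0. Adgrg7 had 3 to 18 reads per library in steady state and 3 to 20 at day 12, and was not called (adjusted p = 0.749). Adgrg5, an orphan receptor, had 5 reads in steady state and 6 at day 12, and Adgrg2 had 3 and 0. Adgrg3, a receptor of neutrophils, and Adgrg4 had no read in any library. Adgrg5, Adgrg1 and Adgrg3 lie next to each other on chromosome 8 in this order, 31.5 and 3.47 kb apart with no protein-coding gene between them, so that in this cluster Adgrg1 alone had more than 5 reads in any library.

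Of the L subfamily, Adgrl1 and Adgrl4 were tested and both fell. Adgrl1 is a latrophilin, a receptor for teneurins and FLRT proteins first found as a target of spider toxin. Adgrl1 (ENSMUSG00000013033, chromosome 8, 84626734 to 84668583) stood at 10.1, 9.16 and 8.46 CPM in the steady-state libraries and at 5.94, 5.25, 5.13 and 6.24 CPM at day 12. The groups were separate, with a mean of 9.24 ± 0.828 CPM before and 5.64 ± 0.535 CPM after (edgeR adjusted p = 0.00910 for a log2 fold change of -0.71 with SE 0.15, and 0.0617 without steady-state replicate 1). Its neighbour on the chromosome, at a distance of 159 kb and with no protein-coding gene between, is Adgre5, which fell as well.

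Adgrl4, a receptor of endothelial cells with a role in vessel growth (ENSMUSG00000039167, chromosome 3, 151143524 to 151250723), had 90, 122 and 96 reads in steady state and 1, 17, 1 and 2 reads at day 12. Its mean fell from 3.05 ± 0.374 to 0.135 ± 0.196 CPM, 21.6-fold (edgeR adjusted p = 0.00232 for a log2 fold change of -4.43 with SE 0.69). Day 12 replicate 2 held most of the day 12 reads, and without it the log2 fold change was -6.23 (adjusted p = 8.37e-05). The 8 endothelial markers summed to 3.67 to 4.03 CPM in the steady-state libraries and 5.46 to 15.3 CPM at day 12. Cldn5 was at 0 throughout, Cdh5, Kdr and Esam had under 10 reads in every library, Egfl7 fell from 1.64 ± 0.277 to 0.0811 ± 0.0699 CPM, and Pecam1 rose from 1.17 ± 0.327 to 7.82 ± 4.20 CPM. Their part in the Adgrl4 result was not tested. Adgrl2 had 1, 9 and 2 reads in steady state and 1, 1, 0 and 0 at day 12, with most of its reads in steady-state replicate 2, and was not called with no filter (edgeR adjusted p = 0.171). Adgrl3 had no read.

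In the F subfamily, whose members are best known from epithelia and endothelium, Adgrf1 fell and Adgrf5 was not called. Adgrf1 (ENSMUSG00000041293, chromosome 17, 43581220 to 43635628) had 24, 20 and 18 reads in steady state and 1, 0, 4 and 5 at day 12, or 0.616 ± 0.0836 and 0.0692 ± 0.0675 CPM (edgeR adjusted p = 0.0100 for a log2 fold change of -3.13 with SE 0.66). The fitted value was -3.72 without day 12 replicate 4 and -2.44 with a prior count of 2. Adgrf5, which lies 35.7 kb from Adgrf1 and controls surfactant levels in the lung, stood at 9.07, 15.1 and 13.8 CPM in the steady-state libraries and 19.8, 14.3, 20.1 and 13.1 CPM at day 12. The groups overlapped, and the log2 fold change of 0.41 (SE 0.22) did not pass (adjusted p = 0.223). Adgrf3 had no steady-state read and 3, 5, 2 and 11 reads at day 12, Adgrf2 none and 4, 2, 1 and 1, and Adgrf4 had 2 reads in steady state and 4 at day 12. Adgrf2 was not called with no filter either (edgeR adjusted p = 0.178).

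Among the B members, which include a receptor for phosphatidylserine on dying cells, Adgrb1 was seen at day 12 alone. Adgrb1 encodes that receptor (BAI1; ENSMUSG00000034730, chromosome 15, 74388044 to 74461314) and had no read in the 3 steady-state libraries and 8, 5, 10 and 10 reads at day 12 (0.223 ± 0.0724 CPM). It did not reach the filter on low counts and so was not tested in the main comparison. With no filter it was called (edgeR adjusted p = 0.00614), as was Adgrf3 (0.0368), and DESeq2 gave adjusted p of 0.00235 and 0.0277. Adgrb2 had 2 reads in steady state and 3 at day 12, and Adgrb3, a receptor of neurons, had 1 and 0.

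Of the remaining members, Adgra3 had the highest steady-state level per length outside the E and G subfamilies. It stood at 17.6, 18.9 and 22.4 CPM in the steady-state libraries and 16.2, 14.7, 16.6 and 17.5 CPM at day 12. The groups did not overlap, but their edges nearly met and the change was not called (edgeR adjusted p = 0.149 for a log2 fold change of -0.27 with SE 0.12). Adgra2, a co-receptor for Wnt signals in brain vessels, had 16 reads in steady state and 12 at day 12, and Adgra1 had none. Adgrd1 had 8, 17 and 16 reads and 7, 26, 7 and 18 reads and was not called (adjusted p = 0.940). The pseudogene Rps16-ps2 overlaps it on the other strand with 70191 reads over all libraries. Adgrv1, the very large receptor of sensory hair cells, had 1 and 5 reads. In all, 4 of the 27 members had no read in any library, and the 11 others that were not tested had at most 11 reads in a library.

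The CELSR genes, cadherin-type relatives in planar cell polarity that carry another gene symbol and so are no members here, were followed as well. Celsr3 stood at 25.3 ± 2.87 CPM in the steady-state libraries and 34.6 ± 4.76 CPM at day 12 (log2 fold change 0.45, edgeR adjusted p = 0.0440). That call was lost without any 1 of steady-state replicates 1, 2 and 3 (adjusted p = 0.0689, 0.186 and 0.137) and without day 12 replicate 1 (0.0560) or 3 (0.0709). Celsr2 stood at 1.58 ± 0.155 and 1.88 ± 0.523 CPM and was not called (adjusted p = 0.593), and Celsr1 was at most 0.203 CPM in any library.

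Reads of ligands and binding partners of the receptors were seen in the same libraries in part. Of 41 listed, 20 were tested, 7 rose and 2 fell (10.1% and 10.2% of all genes tested). Their median log2 fold change was 0.29 against 0.0031 over all genes. Count and median are no test of the list: Flrt1 and Flrt2 passed the filter through the day 12 libraries alone. Flrt3 also needed those libraries to pass, with 10 reads in 1 steady-state library and fewer in the others. Cd55, the partner of CD97, rose from 9.10 ± 1.80 to 20.9 ± 2.72 CPM (edgeR adjusted p = 0.00142 for a log2 fold change of 1.20 with SE 0.17), with values of 10.7, 9.52 and 7.12 CPM in the steady-state libraries and 19.5, 21.7, 24.4 and 18.1 CPM at day 12. Adgre5 thus fell where Cd55 rose. Tgm2, the transglutaminase that binds GPR56, rose from 19.7 ± 2.28 to 408.6 ± 299 CPM (adjusted p = 0.00234 for a log2 fold change of 4.37 with SE 0.57). Its level in day 12 replicate 4 was 857.8 CPM against 251 to 266 CPM in the others, and without that library the log2 fold change was 3.72.

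The FLRT genes, whose products bind latrophilins, were low and higher at day 12. Flrt2 rose from 0.0795 ± 0.0341 to 1.55 ± 0.752 CPM (edgeR adjusted p = 0.000885). Flrt1, Flrt3 and Unc5b were named after their values were seen. Flrt1 had 1 read in steady state and 0.415 ± 0.0467 CPM at day 12, a ratio of 41.6 with a 95% counting interval of 7.20 to 1670 (adjusted p = 0.00184, and a log2 fold change of 4.97, which was 6.91 without steady-state replicate 2 and 2.84 with a prior count of 2). Flrt3 rose from 0.128 ± 0.146 to 0.752 ± 0.237 CPM (adjusted p = 0.0224, but 0.101 and 0.0863 without steady-state replicates 2 and 3). Its log2 fold change of 2.51 became 4.00 without steady-state replicate 1. Unc5b, a netrin receptor that also binds FLRT proteins, rose from 2.61 ± 0.0811 to 20.2 ± 13.9 CPM (log2 fold change 2.95, and 2.35 without day 12 replicate 4). Of the teneurin genes, Tenm1, Tenm2 and Tenm3 had at most 1 read in all, and Tenm4, also named after its values were seen, stood at 2.13 ± 0.281 and 1.72 ± 1.02 CPM and was not called (adjusted p = 0.635).

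Of the tetraspanins that form complexes with GPR56, Cd9 rose from 328 ± 38.1 to 568.8 ± 33.8 CPM (edgeR adjusted p = 0.00183) and Cd81 fell from 154 ± 5.57 to 66.6 ± 16.5 CPM (0.00173). The integrin chain gene Itgb3 fell from 66.4 ± 9.39 to 8.04 ± 2.68 CPM (adjusted p = 0.000151).

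**Figure D4:**
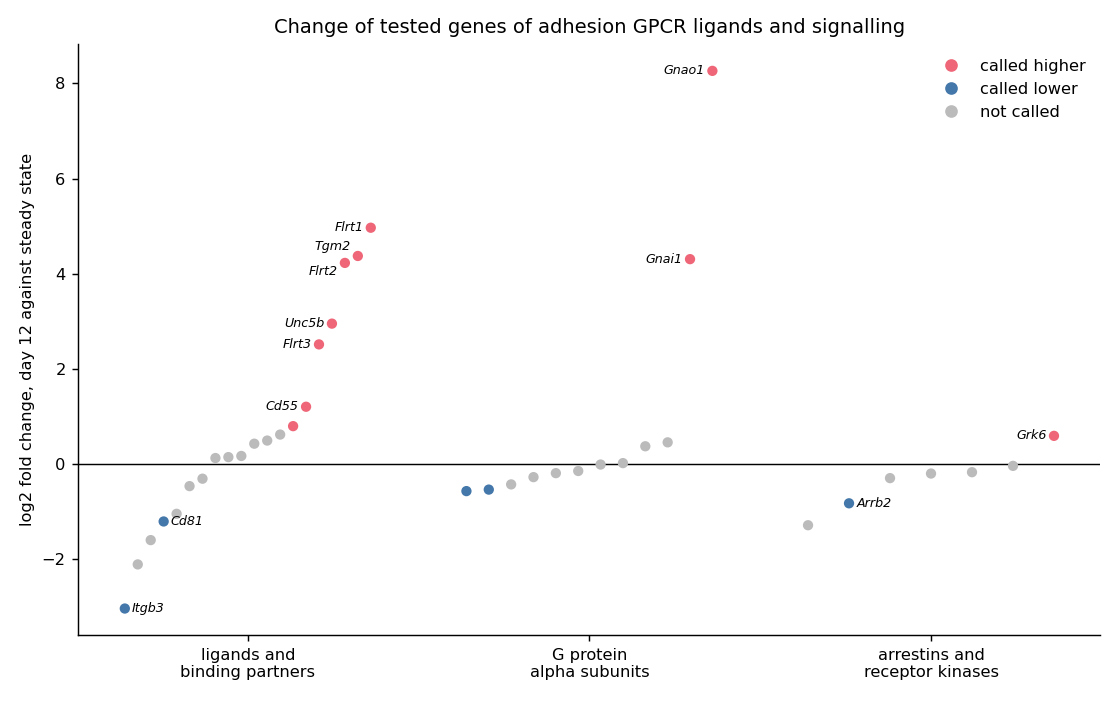
Log2 fold change, day 12 against steady state (y axis), of the tested genes of 3 lists (x axis), each point a gene. Colours give the call at an adjusted p of 0.05, with Gnao1 at 8.26 the highest and Itgb3 at -3.04 the lowest point.

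Genes of G protein alpha subunits went both ways, 2 of 12 tested higher and 2 lower (10.1% and 10.2% of all genes tested), with a median log2 fold change of -0.08. Gnao1 and Gnai1 passed the filter through the day 12 libraries alone, so the count is no test of the list. The 2 that rose, Gnao1 and Gnai1, belong to the class that lowers cyclic AMP, whose abundant members Gnai2 (760.4 ± 32.0 and 626.5 ± 112 CPM) and Gnai3 (335.8 ± 20.7 and 302.6 ± 51.0 CPM), named after their values were seen, were not called (adjusted p = 0.208 and 0.516). Gnao1 had 3 reads in steady state and stood at 15.5, 4.07, 16.0 and 5.28 CPM at day 12, a ratio of 344 with a 95% counting interval of 118 to 1670 (edgeR adjusted p = 0.000666). Gnai1 rose from 0.0379 ± 0.0426 to 0.844 ± 0.561 CPM (adjusted p = 0.00626). The log2 fold change of Gnao1 was 8.26, with 7.77 to 9.14 when 1 library was left out and 6.91 with a prior count of 2. That of Gnai1 was 4.30, with 3.75 to 5.49 and 3.24 in the same fits. Gnaq fell from 188 ± 5.90 to 129 ± 16.3 CPM (adjusted p = 0.0121) and Gna12 from 63.7 ± 3.96 to 42.8 ± 6.79 CPM (0.0136). Leaving out steady-state replicate 2 or 3 brought the lower calls to 0, and leaving out day 12 replicate 4 brought them to 4. Over all genes the lower calls went from 1626 to 904, 904 and 2411 in these fits.

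Of genes that act after the receptors, some adenylyl cyclases, which make cyclic AMP, rose and others fell. Adcy3 rose from 1.43 ± 0.466 to 10.2 ± 1.57 CPM (edgeR adjusted p = 0.000195) and Adcy4 from 25.8 ± 5.93 to 80.6 ± 30.8 CPM (0.00518), whereas Adcy6 fell from 20.6 ± 1.58 to 7.05 ± 2.55 CPM (0.00287). Adcy9 fell from 19.3 ± 2.13 to 11.4 ± 1.95 CPM (0.00899, but 0.0510 without steady-state replicate 3). Of the pair through which BAI1 drives uptake of dying cells, Dock1 fell from 87.5 ± 0.703 to 65.6 ± 7.06 CPM (0.0224) and Elmo1 stood at 66.3 ± 6.30 and 62.6 ± 11.5 CPM and was not called (0.739). The Dock1 call was lost without steady-state replicate 1, 2 or 3 (0.0967, 0.0861 and 0.0848) and without day 12 replicate 1 (0.0700).

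Of 7 arrestins and receptor kinases, which silence activated receptors, Arrb2 fell from 471 ± 19.5 to 265 ± 53.8 CPM (edgeR adjusted p = 0.00577) and Grk6 rose from 358 ± 33.8 to 538 ± 95.2 CPM (0.0246). These were the only calls, 1 lower and 1 higher, against 10.2% and 10.1% of all genes tested. The median log2 fold change was -0.20 over the list and 0.0031 over all genes tested. The Grk6 call was lost without steady-state replicate 1, 2 or 3 (0.0635, 0.119 and 0.0852). In the fit without day 12 replicate 4, in which the lower calls over all genes were 2411, 3 genes of this list were called lower. Tgm2, Flrt1, Flrt3, Gnaq and Adcy3 overlap other expressed genes on the other strand (Rprd1b, Macrod1, Macrod2, Gm53055 with Gm10819, and Cenpo), which leaves their levels uncertain.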

How the data were processed

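The deposited table holds raw read counts per gene in GRCm39 coordinates, with no normalisation by the authors. The tools named in the submitters' processing notes are DESeq2 1.40.2, STAR 2.7.11a, featureCounts of Subread 2.0.6, FastQC and SAMtools 1.10. For annotation release, strand setting and multi-mapping reads the choice is not given, which could change overlapping genes and relatives of similar sequence. Libraries were matched to groups by name and title. The labels' protocols speak of 30 ng of total RNA and of 3 biological replicates per condition, whereas the titles list 4 libraries for day 12, all of which were used. A p-value here reflects the spread among these libraries, which may be partly technical.

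Counts were tested with edgeR 4.0.16 (R 4.3.3; TMM, filterByExpr with minimum count 10 and total 15, robust quasi-likelihood, group as the only term), with Benjamini-Hochberg adjustment over 15981 genes and a threshold of 0.05. Each SE was derived from log2 fold change and quasi-likelihood F. Alternatives were RLE factors, DESeq2 1.42.0, limma-voom 3.58.1, other filters, a prior count of 2 for fold changes, leaving out each library, and a replicate block. The procedure was tested on simulated counts. Members, lists and motifs were chosen with earlier results of these data known. Every member is described, with at most 5 called genes of each other list besides preset ones and those said to be named after their values were seen. The counts of 1 list of signalling genes are not reported here.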

Additional observations from a re-analysis of the deposited data

Results flagged for a closer look

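In the 4 day 12 libraries a single value lay far from the others for 2 of the 12 tested members. Adgrg1 stood at 0.842 CPM in day 12 replicate 4, and the gap to the next library was 0.883 of the whole range. Adgrl4 stood at 0.427 CPM in day 12 replicate 2, with a gap of 0.921 of the range. Both gaps pass the critical value of Dixon's test for 4 samples, which chance passes in about 1 of 20 groups of normally distributed values. These values are CPM of low read counts, so that rate need not hold for them. Day 12 replicate 4 also held the most Tgm2 and Unc5b, and day 12 replicate 2 the highest sums of B cell (47.4 CPM) and of T and NK cell markers (3.14 CPM). The part of these in either value was not tested.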

How the results depend on the processing

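Members called higher numbered 4 in place of 2 with DESeq2 and with no filter on low counts, where Adgrb1 and Adgrf3 were added, and 1 with a filter of 1 CPM in 3 libraries, which removes Adgrg1. Leaving out 1 library gave 2 in each fit. Members called lower numbered 4 to 6 in those fits. Over all genes, 857 to 2188 were called higher and 904 to 2411 lower with 1 library left out, against 1616 and 1626. The falling genes of all lists of ligands and signalling together numbered 5 to 20, against 12. Leaving out 1 library turned the sign for 2 members that were not called: Adgrg7 (-0.81 to 0.29) and Adgrd1 (-0.43 to 0.17). The means of the 12 tested members on raw totals moved by less than 1 SD. No label says that the replicate numbers pair the samples. Deviations from the group means correlated at -0.141, 0.00775 and 0.203 for numbers 1, 2 and 3. Libraries of different number gave -0.201 to 0.191, and so few values cannot settle whether the numbers pair samples. With the number as a replicate block over replicates 1 to 3, 1979 genes rose and 2267 fell (2188 and 2411 for the same libraries without the block), 2 members rose and 5 fell, and Adgrg6 had an adjusted p of 0.0852 (log2 fold change -1.39). Members under about 10 reads per library are limited by depth, and their absence was not shown.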
